A study of Homo sapiens with 12 samples.

Results

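The NRF2 pathway and antioxidant genes described here are NFE2L2, KEAP1, NQO1, HMOX1, GCLC, GCLM, TXNRD1, SRXN1, OSGIN1 and GPX4. They were taken by gene symbol, which selected 10 of the 58302 genes in the deposited tables. Their expression was read in 12 RNA sequencing libraries from 769-P and ACHN cells, which are established human renal carcinoma lines that the labels describe as clear cell renal cell carcinoma (ccRCC). Each line was transfected with siNUF2, a mixture of siRNAs against the kinetochore gene NUF2, or with siControl, and RNA was extracted at 48 h, with 3 libraries in each of the 4 groups. The siControl cells were transfected too, so both arms of a comparison carry an siRNA. Each line is a single cell line and the siRNAs were mixed, so the response of 1 siRNA cannot be told apart from that of another.

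NRF2, the protein of NFE2L2, is a transcription factor that is held at a low level by KEAP1, an adaptor that presents it to a ubiquitin ligase. When oxidants or electrophiles modify KEAP1, NRF2 escapes degradation, pairs with small MAF proteins and binds antioxidant response elements near genes for glutathione synthesis, thioredoxin reduction, quinone detoxification and heme breakdown. Control of NRF2 is thus largely at the level of the protein, which was not measured here. In renal carcinoma the pathway is known for mutations of its regulators and for its part in the handling of oxidative stress, and GPX4 is known as the enzyme that protects cells from ferroptosis.

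All 10 are protein-coding genes of the hg38 build. In GENCODE release 29 the reverse strand holds NFE2L2 (ENSG00000116044) at chr2:177227595-177392697, KEAP1 (ENSG00000079999) at chr19:10486120-10503741, NQO1 (ENSG00000181019) at chr16:69706996-69726951 and GCLC (ENSG00000001084) at chr6:53497341-53616970. It also holds GCLM (ENSG00000023909) at chr1:93885205-93909456 and SRXN1 (ENSG00000271303) at chr20:646615-653370. The forward strand holds HMOX1 (ENSG00000100292) at chr22:35380361-35394214, TXNRD1 (ENSG00000198431) at chr12:104215779-104350305, OSGIN1 (ENSG00000140961) at chr16:83948282-83966332 and GPX4 (ENSG00000167468) at chr19:1103926-1106791.

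The antioxidant response element was looked for near the starts of these genes. They were chosen as NRF2 pathway and antioxidant genes, and NRF2 is known to bind this element. The choice could thus favour a match, and the counts are a description and no test. Its core TGACNNNGC and the related form TGAGTCAGC were searched on both strands of RefSeq start site windows (GRCh38.p14, 250 bases before to 50 bases after each start). A match to one motif is never a match to the other at the same place on the same strand. Of the 10 genes, 9 had windows in the table, 14 windows in all, and 4 genes had a match. HMOX1 had no window in the table. A match to either motif was found in at least 1 window of 16.4% of all 27305 genes in the table. Counted by window, a match to either motif was found in 13.69% of all 35116 windows of that length, to TGACNNNGC in 13.35% and to TGAGTCAGC in 0.46%. The matches are printed 5′ to 3′ on the strand of the gene, with the matched letters in capitals, since they are the letters that NRF2 and small MAF proteins are known to bind. A match of this kind describes the sequence and does not show a binding site.
GCLM, chr1:93909446-93909474, reverse strand: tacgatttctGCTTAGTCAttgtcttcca
KEAP1, chr19:10502784-10502812, reverse strand: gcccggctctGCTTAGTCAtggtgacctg
KEAP1, chr19:10502807-10502835, reverse strand: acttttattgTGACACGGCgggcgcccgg
OSGIN1, chr16:83953131-83953159, forward strand: acgggcccctGCTGACTCAcgcttatgaa
TXNRD1, chr12:104215670-104215698, forward strand: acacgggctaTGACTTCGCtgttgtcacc
TXNRD1, chr12:104215761-104215789, forward strand: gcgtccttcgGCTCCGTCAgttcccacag
TXNRD1, chr12:104286920-104286948, forward strand: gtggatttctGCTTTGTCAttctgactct

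The match of GCLM lay 34 to 26 bases before its RefSeq start and read TGACTAAGC on the opposite strand. The first match of KEAP1 read the same 9 letters, 31 to 23 bases before the RefSeq start, and its second read TGACACGGC, 54 to 46 bases before. Both KEAP1 matches lay inside the longer GENCODE gene model and overlapped an exon of it. The OSGIN1 match was to TGAGTCAGC, 99 to 91 bases before the RefSeq start and inside the longer GENCODE gene model. The first TXNRD1 match lay 99 to 91 bases before the start of the longest gene model. The third lay 102 to 94 bases before a second start inside the gene and overlapped a GENCODE exon of TXNRD1. The genes without a printed match, NFE2L2, NQO1, GCLC, SRXN1 and GPX4, had windows without these letters, which says nothing about elements farther away.

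NUF2 (ENSG00000143228), the targeted gene, was measured first. It stood at 4.17, 3.86 and 3.01 FPKM (fragment density scaled for exon length and library size) in 769-P siNUF2 libraries and at 19.4, 17.8 and 17.8 in siControl. In ACHN cells it stood at 2.16, 5.14 and 4.25 FPKM against 11.6, 15.0 and 14.8. The groups did not overlap in either line. Its log2 fold change was -2.29 ± 0.129 (SE, n = 3 against 3, limma, Benjamini-Hochberg adjusted p = 0.00141) in 769-P and -1.88 ± 0.319 (adjusted p = 0.228, and 0.0127 with the replicate number as a block) in ACHN cells.

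The libraries held between 29244017 and 38864844 reads, as recovered from the FPKM values, and the genes described here had from 165 reads (HMOX1) to 59051 reads (TXNRD1) in a library. The spread between libraries of a group, not the depth, thus limited most comparisons made without pairing the libraries. The median SD of a gene was 0.134 to 0.144 on the log2 scale in 769-P and 0.206 to 0.214 in ACHN groups. Renal markers PAX8 and VIM were expressed in every library, whereas CA9, a marker of ccRCC, was at most 0.121 FPKM. The summed level of 8 markers of blood, endothelial, stromal and liver cells was 0.183 to 0.265 FPKM in 769-P and 1.24 to 3.91 FPKM in ACHN cells, mostly COL1A1, with 2 or 3 of the markers at 0 in each group, and overlapped between siNUF2 and siControl in both. In RNA from a whole culture, lower expression per cell and fewer expressing cells cannot be told apart. The labels do not say whether replicates were separate cultures, so p-values measure the spread between these libraries only. The replicate 1 and replicate 2 libraries of ACHN stood apart in both arms, with 345 to 405 of 15012 genes more than 1 log2 unit from their group's mean, against 187 and 199 in replicate 3 and 132 to 181 in 769-P. In replicate 1, GPX4 in siControl was 2.07 times the mean of the other two and HMOX1 was 2.58 times. In replicate 2, the mitochondrial superoxide dismutase SOD2 was at 4.30 and 4.28 FPKM, against 116 to 193 in the other 4 ACHN libraries. Calls in ACHN cells are therefore also given with each replicate number left out of both arms.

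Under siControl, TXNRD1, GPX4 and NQO1 were the most abundant of the 10 genes in both lines, on the FPKM scale that accounts for gene length. In 769-P siControl, TXNRD1, the cytosolic thioredoxin reductase, was at 247 ± 29.03 FPKM (SD, n = 3), GPX4 at 152 ± 6.69 and NQO1, a quinone reductase, at 112 ± 6.92. KEAP1 followed at 24.8 ± 0.694 FPKM. NFE2L2 (15.0 ± 1.51), SRXN1 (14.8 ± 1.32) and GCLM (13.6 ± 1.61) were neighbours whose values lay within each other's spread. GCLC, the catalytic subunit of glutamate-cysteine ligase, was at 10.3 ± 0.236 FPKM, below its modifier subunit GCLM in every library. OSGIN1 (4.93 ± 0.957) and HMOX1 (4.36 ± 2.45) were lowest and overlapped.

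In ACHN siControl the order of the genes differed. GPX4 was at 162 ± 73.7 FPKM, TXNRD1 at 118 ± 25.0 and NQO1 at 106 ± 16.8, and these 3 overlapped. NFE2L2 came next at 36.8 ± 4.73 FPKM, above KEAP1 at 23.7 ± 3.64. HMOX1, which breaks down heme, was at 29.9 ± 18.4 FPKM, with 50.5, 15.1 and 24.0 in the 3 libraries. OSGIN1 (14.6 ± 3.42), GCLM (12.6 ± 1.92) and SRXN1 (11.3 ± 3.05) overlapped, and GCLC was lowest at 5.43 ± 0.644 FPKM.

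**Figure D1:**
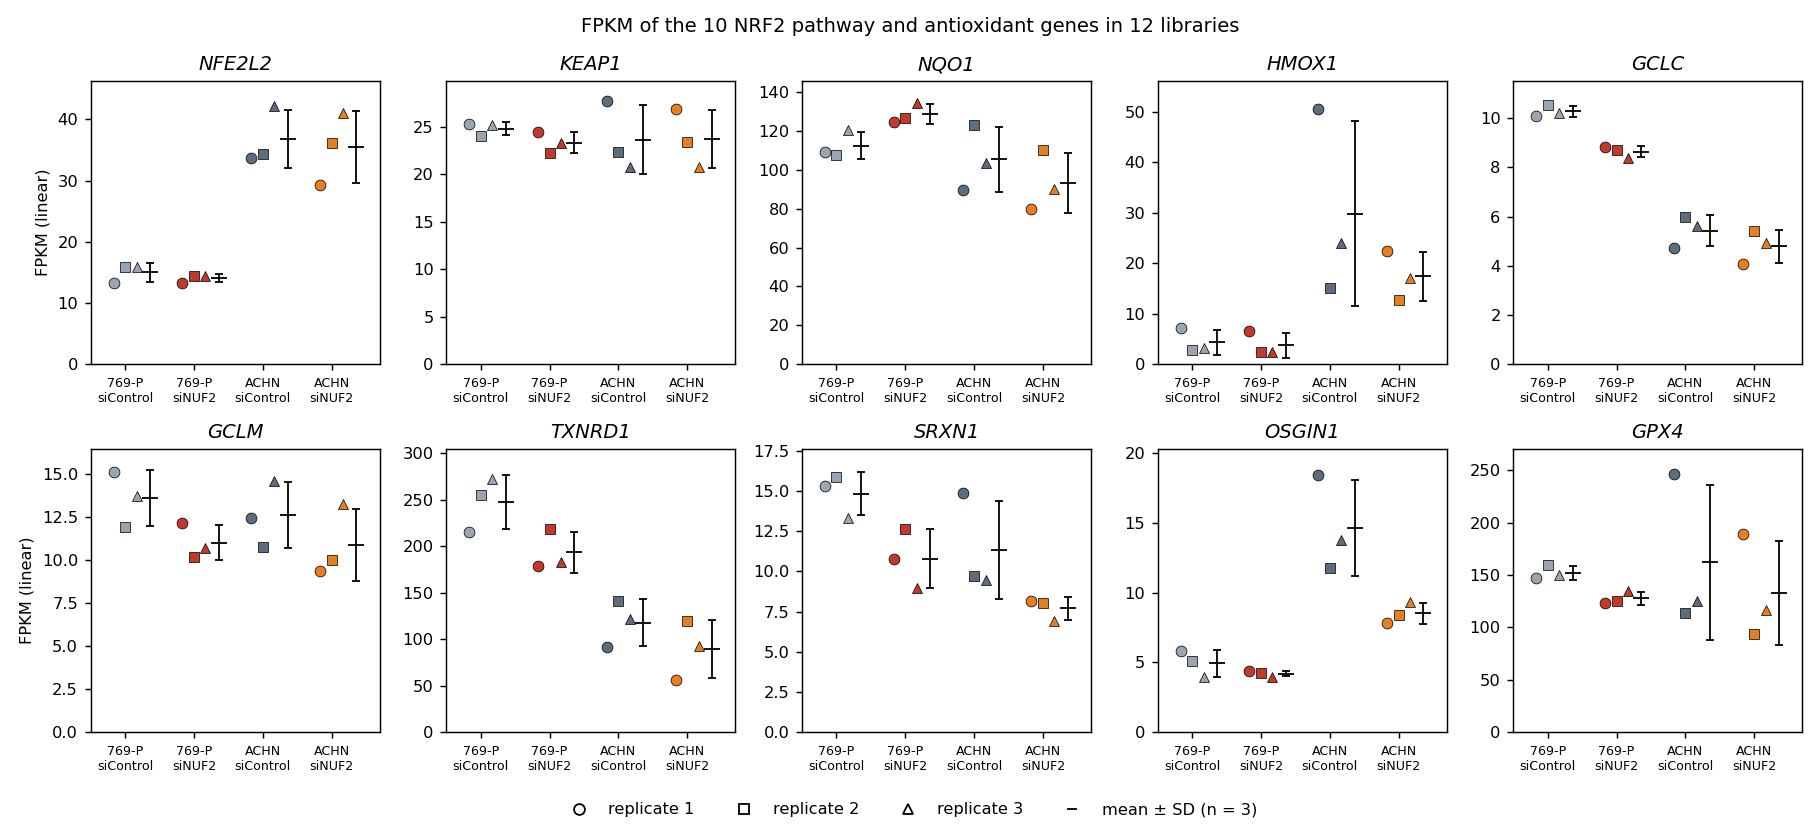
FPKM (linear axes from 0) of the 10 genes in each library, by line and siRNA, with marker shape giving the replicate number and black bars the mean ± SD of 3 libraries. NFE2L2, HMOX1 and OSGIN1 sit higher in ACHN, GCLC and TXNRD1 sit higher in 769-P, and the round replicate 1 markers of ACHN stand apart for HMOX1 and GPX4.

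Between the lines under siControl, 5 of the 10 genes differed, beside 61.4% of all genes tested, so differing between the lines was not particular to them. NFE2L2 was lower in 769-P by a log2 difference of -1.27 ± 0.126 (SE, n = 3 against 3, limma, adjusted p = 0.000194). HMOX1 (-2.68 ± 0.516, adjusted p = 0.00379) and OSGIN1, an oxidative stress induced growth inhibitor, (-1.53 ± 0.211, adjusted p = 0.000855) were also lower in 769-P. GCLC (0.93 ± 0.116, adjusted p = 0.00053) and TXNRD1 (1.10 ± 0.176, adjusted p = 0.00165) were higher there. For these 5 genes the groups did not overlap, 3 lower and 2 higher in 769-P beside 33.8% and 34.5% of all genes, and they overlapped for the rest. Of the genes that NRF2 is known to drive, 2 were thus lower and 2 higher in the line with less NFE2L2 RNA. KEAP1 (0.10), NQO1 (0.12), GCLM (0.13) and GPX4 (0.02) had log2 differences whose 95% intervals included 0, the widest being that of GPX4 from -0.66 to 0.69. SRXN1, which restores overoxidised peroxiredoxins, had a log2 difference of 0.43 that missed the threshold (adjusted p = 0.0886). Without replicate 1 of ACHN siControl it passed at 0.62, as GPX4 did at 0.35. Line and culture conditions cannot be told apart.

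The comparison of siNUF2 with siControl asks whether these genes move when NUF2 is knocked down. In 769-P cells, 9 of the 10 estimates were below 0, with a median log2 fold change of -0.23 against -0.01 over all 14157 genes tested, of which 50.9% were below 0. Without a block no gene of the 10 passed an adjusted p of 0.05, beside 9.90% of all genes. At an unadjusted p under 0.05 there were 5 lower and 1 higher, beside 13.4% and 14.2% of all genes. With the replicate number as a block, 6 of the 10 passed, 5 lower and 1 higher, beside 27.6% of all genes (13.7% lower and 13.9% higher), and limma-voom on the recovered reads with the block also called 6, beside 36.7%. The groups did not overlap for 3 genes that were lower and 1 that was higher, beside 17.3% and 16.0% of all genes. All 3 same-numbered pairs were lower for 7 of the 10 genes, beside 31.8% of all genes, and higher for 1, beside 31.3%.

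NFE2L2 and KEAP1 stayed within the spread between libraries in 769-P. NFE2L2 stood at 13.3, 14.5 and 14.4 FPKM with siNUF2 and at 13.2, 15.9 and 15.9 with siControl, with a log2 fold change of -0.07 and a 95% interval from -0.20 to 0.05 with the block. KEAP1 stood at 24.5, 22.2 and 23.3 FPKM against 25.3, 24.0 and 25.2, with a log2 fold change of -0.08 and an interval from -0.18 to 0.03. Neither the factor nor its inhibitor differed detectably at the RNA level.

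Both subunits of glutamate-cysteine ligase, which makes the first step of glutathione synthesis, were lower. GCLC stood at 8.82, 8.71 and 8.40 FPKM with siNUF2, each below the siControl values of 10.1, 10.5 and 10.2. The log2 fold change of GCLC was -0.23 ± 0.0656 (SE, limma adjusted p = 0.0676), and it fell in the fit with the block (adjusted p = 0.0255). GCLM stood at 12.1, 10.2 and 10.7 FPKM against 15.1, 11.9 and 13.7, and the groups overlapped while every same-numbered pair was lower. GCLM gave a log2 fold change of -0.29 ± 0.115 (adjusted p = 0.165, and 0.0175 with the block).

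SRXN1, TXNRD1 and GPX4 were lower too. SRXN1 had the lowest estimate of the 10 genes, at 10.7, 12.6 and 8.95 FPKM against 15.3, 15.9 and 13.4, without overlap. This was a log2 fold change of -0.46 ± 0.136 (limma adjusted p = 0.0810, and 0.0109 with the block). TXNRD1 stood at 178, 218 and 183 FPKM against 215, 255 and 272, where the highest siNUF2 library lay above the lowest siControl library. TXNRD1 gave a log2 fold change of -0.34 ± 0.109 (adjusted p = 0.0983, and 0.0299 with the block). GPX4, which reduces lipid peroxides with glutathione, stood at 124, 125 and 135 FPKM against 147, 160 and 150, without overlap. For GPX4 the log2 fold change was -0.24 ± 0.0627 (adjusted p = 0.0578, and 0.0260 with the block).

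NQO1 went the other way in 769-P. It stood at 125, 127 and 135 FPKM with siNUF2 and at 109, 108 and 120 with siControl, so the groups did not overlap. Its log2 fold change was 0.21 ± 0.0664 (limma adjusted p = 0.0973), and it rose in the fit with the block (adjusted p = 0.0171), with pair differences of 0.19, 0.25 and 0.18. HMOX1 stood at 6.65, 2.38 and 2.35 FPKM against 7.19, 2.72 and 3.18, with both replicate 1 libraries high. Its estimate of -0.23 had a 95% interval from -1.39 to 0.94, or from -0.43 to -0.02 with the block (adjusted p = 0.0975). OSGIN1 stood at 4.36, 4.22 and 3.97 FPKM against 5.82, 5.06 and 3.92, with a log2 fold change of -0.20 (adjusted p = 0.429, and 0.184 with the block).

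**Figure D2:**
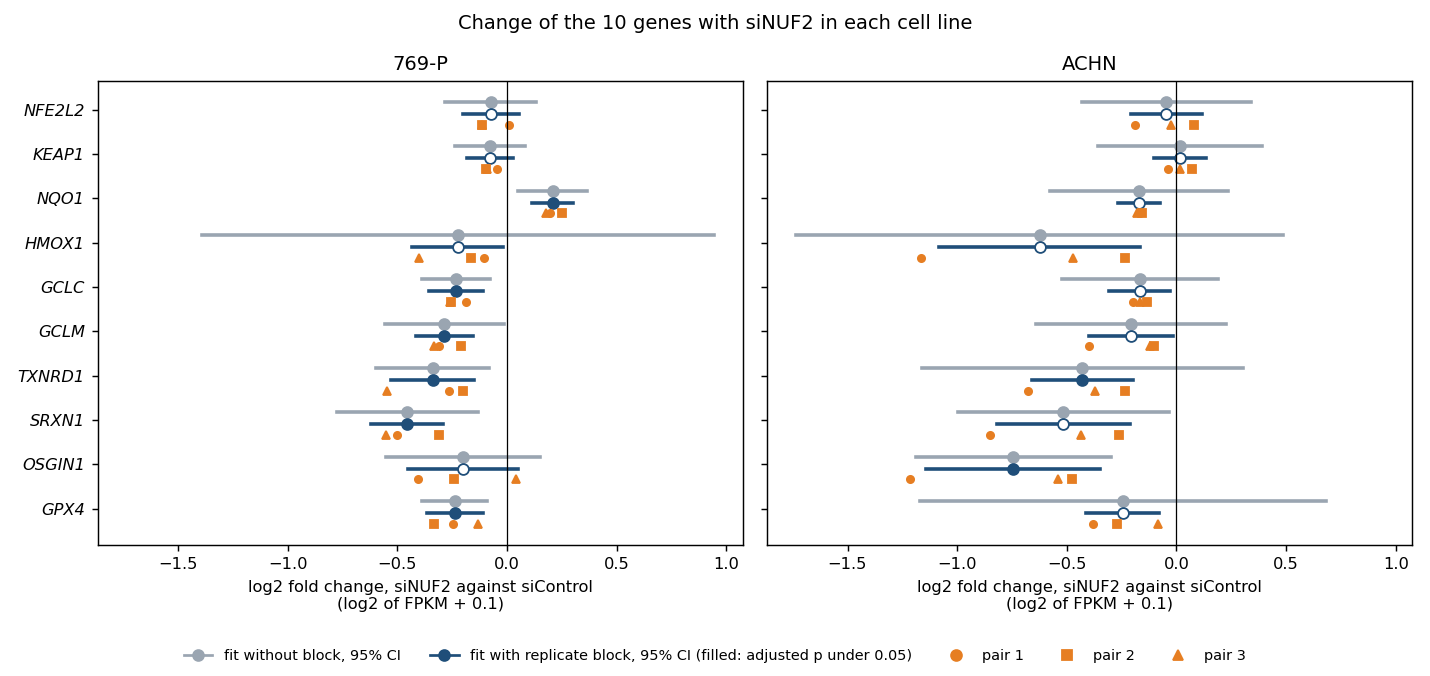
Log2 fold change of siNUF2 against siControl (x axis, log2 of FPKM + 0.1) for each gene in each line, with 95% confidence intervals from the fits without (grey) and with (blue) the replicate block, and the 3 same-numbered pair differences (orange). In 769-P, 5 genes fell and NQO1 rose in the blocked fit, and in ACHN the blocked fit called TXNRD1 and OSGIN1, with pair 1 lowest for most genes.

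In ACHN cells, 9 of the 10 estimates were below 0, beside 50.3% of the 15114 genes tested. The median log2 fold change was -0.23 against -0.00 over all genes. Without the block no gene passed, of the 10 or of all genes (0%). At an unadjusted p under 0.05 there were 2 of the 10, both lower, beside 3.23% of all genes. Limma-voom on the recovered reads without the block called 0 of the 10, beside 0 of all 15077 genes. With the block 2 of the 10 passed, TXNRD1 and OSGIN1, beside 11.7% of all genes (5.09% lower). Limma-voom with the block called 8 of the 10, all except NFE2L2 and KEAP1, beside 23.8% of all genes. Replicates 2 and 3 alone with the block called OSGIN1, beside 2.44% of all genes (0.748% lower). Replicates 1 and 3 alone with the block called 0 of the 10, beside 2.37% of all genes, and replicates 1 and 2 alone called none of all genes (0%), with 22.7% at an unadjusted p under 0.05 in limma. All 3 pairs were lower for 8 of the 10 genes, beside 26.6% of all genes. The groups did not overlap for SRXN1 and OSGIN1, both lower, beside 6.45% of all genes.

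OSGIN1 had the lowest estimate of the 10 in ACHN cells. It stood at 7.84, 8.38 and 9.34 FPKM with siNUF2, all below the siControl values of 18.4, 11.8 and 13.8. The log2 fold change of OSGIN1 was -0.74 ± 0.183 (SE, limma adjusted p = 0.355), and it fell in the fit with the block (adjusted p = 0.0453). From replicates 2 and 3 alone the estimate was -0.51 (adjusted p = 0.0443 with the block), from 1 and 3 -0.87 (adjusted p = 0.0814) and from 1 and 2 -0.84 (adjusted p = 0.134). TXNRD1 stood at 56.6, 119 and 92.6 FPKM against 91.1, 141 and 121, with the lowest library of each group in replicate 1. Its log2 fold change was -0.43 ± 0.301 (adjusted p = 0.841, and 0.0460 with the block), and it did not pass with any replicate number left out (-0.30, -0.52 and -0.45 without numbers 1, 2 and 3, adjusted p = 0.0747, 0.0694 and 0.156 with the block).

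SRXN1 stood at 8.17, 8.06 and 6.89 FPKM against 14.9, 9.70 and 9.47 in ACHN cells, without overlap. This was a log2 fold change of -0.52 ± 0.198 (limma adjusted p = 0.575, and 0.0547 with the block), so it did not pass in limma on FPKM. HMOX1 stood at 22.4, 12.8 and 17.1 FPKM against 50.5, 15.1 and 24.0, and each pair was lower, by log2 differences of -1.16, -0.24 and -0.47. Its mean of -0.62 rested in good part on pair 1, the estimate without replicate 1 being -0.35. On FPKM it did not pass in limma with the block (adjusted p = 0.0855). GPX4 stood at 189, 94.1 and 117 FPKM against 247, 114 and 125, with pair differences of -0.38, -0.27 and -0.09 (adjusted p = 0.0725 with the block). The calls depended on the unit: limma-voom on reads with the block gave SRXN1, HMOX1 and GPX4 adjusted p of 0.00277, 0.0033 and 0.0086.

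NQO1 was lower in each ACHN pair by nearly the same amount. It stood at 79.7, 110 and 90.3 FPKM with siNUF2 and at 89.9, 123 and 103 with siControl, with pair differences of -0.17, -0.16 and -0.18. The groups overlapped, with the libraries of a pair lying higher or lower together, and the log2 fold change of -0.17 had an adjusted p of 0.929 without the block in limma and 0.0502 with it. GCLC (-0.17, adjusted p = 0.108 with the block) and GCLM (-0.21, adjusted p = 0.135 with the block) did not pass in limma on FPKM. Limma-voom with the block gave NQO1, GCLC and GCLM adjusted p of 0.0179, 0.0457 and 0.0348. NFE2L2 (-0.05) and KEAP1 (0.02) had 95% intervals with the block from -0.21 to 0.12 and from -0.10 to 0.13.

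**Figure D3:**
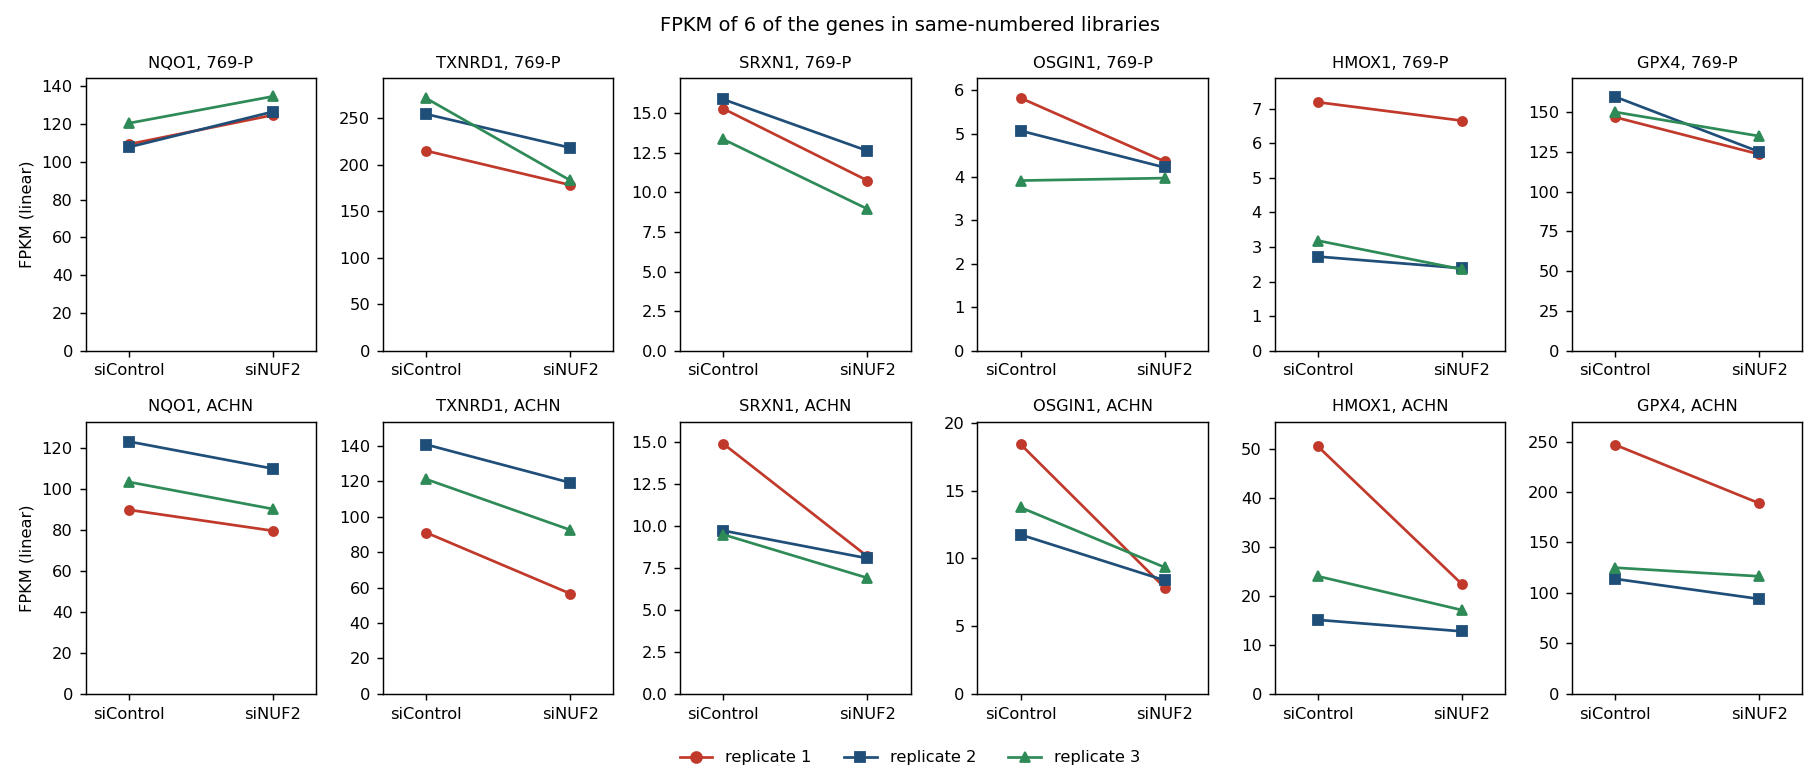
FPKM (linear axes from 0) of 6 of the genes with siControl and siNUF2, with lines joining libraries of the same replicate number, for 769-P (top) and ACHN (bottom). NQO1 lines go up in 769-P and down in ACHN, and the replicate 1 lines of HMOX1, OSGIN1 and SRXN1 in ACHN start highest.

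The difference of the responses between the lines was tested as an interaction on all 12 libraries. It was called for no gene without the block (0% of 16575, 782 with an unadjusted p under 0.05), and for 1 of the 10 with it, beside 1.41% of all genes (limma-voom with the block 1 of the 10, beside 6.36%). That gene was NQO1, whose log2 fold change was 0.21 in 769-P and -0.17 in ACHN, a difference of 0.37 ± 0.186 (SE, limma adjusted p = 1.00) that had an SE of 0.0418 and an adjusted p of 0.0337 with the block. With replicate 1, 2 or 3 of ACHN left out in both arms the difference was 0.37, 0.38 and 0.36 and did not pass (adjusted p = 0.102, 0.0854 and 0.130 with the block). For OSGIN1 the difference was 0.53, with a 95% interval from 0.02 to 1.05 and an adjusted p of 0.242 with the block. For the other 8 genes the block intervals included 0, the widest being that of HMOX1 from -0.17 to 0.96.

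The wider pathway was read from 8 lists of 77 other genes. In 769-P cells 71 of them were tested and 11 were called, beside 9.90% of all genes, 4 higher and 7 lower, beside 5.32% and 4.58%. With the block 25 were called, beside 27.6% of all genes, 12 higher and 13 lower, beside 13.9% and 13.7%. In ACHN cells 70 were tested and none (0) was called without the block, although 9 had an unadjusted p under 0.05 in limma, beside 8.14% of all genes. With the block 11 were called, beside 11.7% of all genes, 2 higher and 9 lower, beside 6.65% and 5.09%. With the block and replicate 1, 2 or 3 left out of both arms, 4, 2 and 0 were called. The shares of all genes were then 2.44%, 2.37% and 0%. The median log2 fold change of those tested was -0.05 in 769-P and -0.09 in ACHN cells, nearer to the median of all genes than that of the 10. For the difference between the lines 74 were tested and 5 were called with the block, beside 1.41% of all genes. Without the block none (0) was called, of these or of all genes. With the block and replicate 1, 2 or 3 of ACHN left out, 0 were called, beside 2, 0 and 0 of all 16575 genes.

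ME1 and PRDX4 had the highest estimates of the wider lists in both lines. The other genes of their lists were not all higher, with 4 of the 6 NADPH supply genes below 0 in each line, and 6 of 11 thioredoxin and peroxiredoxin genes in 769-P and 10 of 12 in ACHN. ME1, a malic enzyme that makes NADPH, stood at 8.61, 7.38 and 9.81 FPKM in 769-P siNUF2 against 3.62, 3.51 and 3.98, a log2 fold change of 1.20 ± 0.117 (SE, limma adjusted p = 0.00476). In ACHN cells it stood at 14.2, 14.7 and 16.5 FPKM against 10.2, 9.23 and 11.5, a log2 fold change of 0.56 that passed with the block (adjusted p = 0.0148, and 0.28 without). PRDX4, the peroxiredoxin of the endoplasmic reticulum, stood at 55.2, 50.8 and 55.0 FPKM against 28.9, 25.99 and 20.0 in 769-P, a log2 fold change of 1.13 ± 0.137 (adjusted p = 0.00782). In ACHN cells PRDX4 stood at 27.2, 22.3 and 22.9 FPKM against 11.1, 10.5 and 10.2, a log2 fold change of 1.18 (adjusted p = 0.0105 with the block, and 0.120 without). The rise of ME1 was larger in 769-P by 0.63, which passed only with the block and all ACHN libraries kept (adjusted p of the interaction 0.0381).

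Of the genes that recycle or break down glutathione, GSR, glutathione reductase, fell in 769-P from 151, 154 and 176 FPKM to 97.1, 98.2 and 99.5, a log2 fold change of -0.69 ± 0.0715 (limma adjusted p = 0.00527). GGT1, which cleaves extracellular glutathione, fell there by 0.62 on the log2 scale (adjusted p = 0.0134). The ACHN estimates were -0.21 for GSR (adjusted p = 0.0388 with the block) and -0.17 for GGT1. Both interactions passed only with the block and all ACHN libraries kept (adjusted p = 0.0358 and 0.0339). SLC7A11, the cystine transporter, stood at 4.89, 8.66 and 10.3 FPKM against 11.7, 11.6 and 14.9 in ACHN cells, a log2 fold change of -0.72 that did not pass (adjusted p = 0.0559 with the block), and at 0.03 in 769-P.

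Among the NRF2 relatives and partners, NFE2L1 rose by 0.47 and NFE2L3 fell by 0.35 on the log2 scale in 769-P (limma adjusted p = 0.0166 and 0.0205), and none of the 12 genes of this list was called in ACHN cells with or without the block. With the block SQSTM1 (-0.29), which binds KEAP1, and BACH1 (-0.30), a repressor at the same elements, were lower in 769-P (adjusted p = 0.0233 and 0.0378). In the thioredoxin list, TXN2 (-0.47) and PRDX3 (-0.42), both mitochondrial, fell in 769-P (adjusted p = 0.0142 and 0.0303), and PRDX3 was at -0.39 in ACHN (adjusted p = 0.0203 with the block). IDH1, which makes cytosolic NADPH, was at -0.55 in 769-P and -0.54 in ACHN (adjusted p = 0.00578 and 0.0148 with the block, 0.0799 and 0.249 without). Of the sestrins, SESN1 was at 0.45 in 769-P (adjusted p = 0.0280 with the block) and SESN2 at -0.55 in ACHN (adjusted p = 0.166 with the block).

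In the heme and iron list, FECH, which inserts iron into protoporphyrin to make heme, rose by 0.47 in 769-P (limma adjusted p = 0.0200). TFRC, the transferrin receptor, fell there by 0.56 (adjusted p = 0.0120) and was at -0.00 in ACHN cells. Its interaction passed only with the block and all ACHN libraries kept (adjusted p = 0.0458). Of the detoxification genes, NQO2 fell by 0.46 in 769-P (adjusted p = 0.0149), where its relative NQO1 was higher. AKR1B10 had the lowest estimate in ACHN cells at -0.81 (adjusted p = 0.0288 with the block), from a level of 1.12 to 1.77 FPKM. GCH1, which makes the antioxidant tetrahydrobiopterin, had the lowest in 769-P at -0.81 (adjusted p = 0.0366 with the block). AKR1C3 and FTH1 (-0.39 and -0.34 in ACHN, adjusted p = 0.0328 and 0.0308 with the block) have close relatives or pseudogenes whose reads could be split, and are uncertain. TXNIP (-0.44), AIFM2 (-0.44) and SLC40A1 (-0.35) completed the genes that passed lower in ACHN with the block, and CBR3 (0.28), PGAM5 (0.19) and FECH (0.19) had the highest estimates that did not pass.

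**Figure D4:**
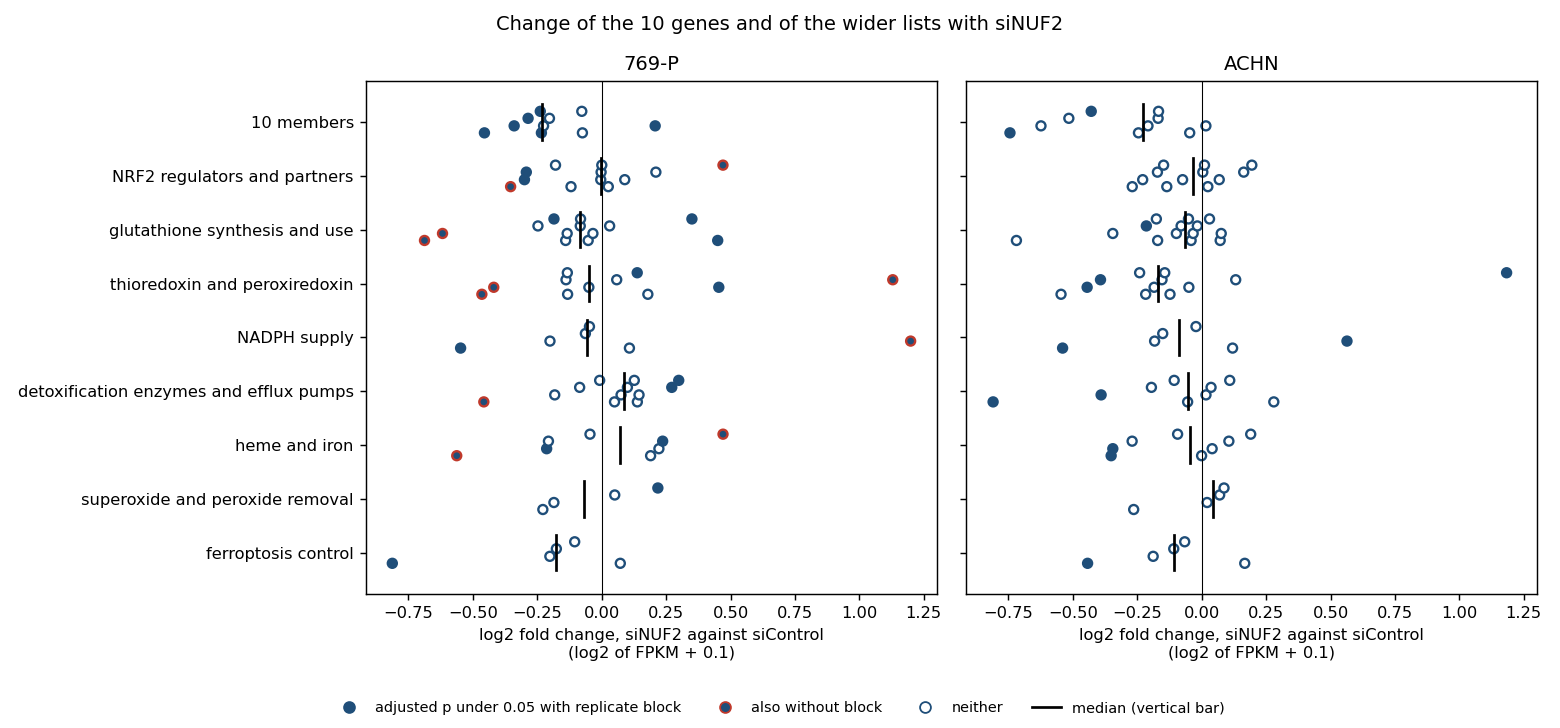
Log2 fold change of siNUF2 against siControl (x axis, log2 of FPKM + 0.1) for the 10 genes and the 8 wider lists in each line, 1 point a gene, with filled points called with the replicate block, red rims called without it and vertical bars the list medians. ME1 and PRDX4 lie farthest right in both lines, and the bar of the 10 genes lies at -0.23 in both.

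Between the lines under siControl, 59 of 74 tested genes of the wider lists differed, beside the same 61.4%. GSTP1 stood at 286 ± 31.7 FPKM in ACHN and 0.0828 ± 0.0701 in 769-P siControl, and ABCC2, an efflux pump, at 47.0 ± 1.35 FPKM in 769-P and 0.156 ± 0.0875 in ACHN.

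Deviations from the group means showed which of the 10 genes varied together over the 12 libraries. Of 45 pairs of genes, 3 had a Pearson r above 0.8, GCLC with TXNRD1 (0.927), NQO1 with TXNRD1 (0.862) and NQO1 with GCLC (0.856). GPX4 ran opposite to GCLC (-0.960), TXNRD1 (-0.864) and NQO1 (-0.851), and NFE2L2 opposite to KEAP1 (-0.803). These values came mainly from ACHN libraries: GCLC with TXNRD1 had an r of 0.984 in the 6 of ACHN and 0.307 in those of 769-P. The libraries share lines and replicate numbers, so r is given as a description. The genes whose levels followed NFE2L2 most closely over the 12 libraries were UBE4A (r = 0.996), TRAF5 (r = 0.995) and CLIC4 (r = 0.994), out of 12931 genes compared and over libraries in which NFE2L2 differed mainly between the lines (-1.27 on the log2 scale).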

How the data were processed

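The authors transfected 769-P and ACHN cells, prepared Illumina libraries and filtered reads with fastp. The submitters' processing notes name HISAT2 2.0.5, featureCounts 1.5.0-p3 and hg38; the strand setting and the filters on genes are not given in the sources used here. The deposited values are FPKM, 1 per gene and library, which the authors computed from fragment counts and gene length. The FPKM show whole reads for 96.6% to 96.9% of values under 200 reads (within 0.05 of a whole number, with GENCODE release 29 exon lengths, which 58039 of the genes have), and these reads gave the depth and an added alternative.

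FPKM were scaled by a trimmed mean of log ratios (30% and 5% trimmed), low genes were dropped (a minimum scaled value of 0.5 had to be met in 3 libraries), and limma 3.58.1 in R 4.3.3 (eBayes with a trend) modelled log2(FPKM + 0.1), with Benjamini-Hochberg adjustment over all tested genes at 0.05. A fold change on this scale understates that of low genes. Each line was fitted alone, the lines were compared on siControl libraries, and the interaction used all 12. Exact permutation tests with 3 libraries against 3 cannot give a two-sided p below 0.1. The study tested counts with a count model, whereas the main fits here used the deposited FPKM, with limma-voom on the recovered reads as an alternative.

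The labels give each replicate a number without saying what it marks. Deviations of same-numbered libraries had a Pearson r of 0.195 to 0.362 (769-P) and 0.493 to 0.729 (ACHN), so the numbers were taken as pairs within a line, and blocked values stand where they change a call. The genes and lists were chosen with earlier results of these data known. Named are the 10 genes, NUF2, the 5 highest and 5 lowest of the wider lists per line, genes that the counts turn on, and the 3 genes most like NFE2L2. Other genes named, among them SQSTM1, BACH1, GSTP1 and ABCC2, were picked after their values were seen. The fits without the block were tested on simulated data with independent noise. The fits with the block and limma-voom were not tested in this way. Motifs, counts and figures used Python 3.11.15, NumPy 2.4.6, pandas 2.3.3 and matplotlib 3.10.9. Alternatives were other scalings, pseudocounts of 1 and 0.01, no filter, the block, 1 fit of all libraries, eBayes without a trend, each library left out and, chosen after the data were seen, each replicate number of ACHN left out of both arms.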

Additional observations from a re-analysis of the deposited data

Results flagged for a closer look

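For NQO1 the estimates had opposite signs in the 2 lines. Its log2 fold change with siNUF2 was 0.21 in 769-P and -0.17 in ACHN cells, all 3 same-numbered pairs higher in the first and all 3 lower in the second, and the difference of 0.37 passed the interaction test with the replicate block (limma, adjusted p = 0.0337) and not without it (adjusted p = 1.00). Within ACHN cells NQO1 had an adjusted p of 0.0502 with the block in limma on FPKM, and of 0.0179 in limma-voom with the block. With replicate 1, 2 or 3 of ACHN left out of both arms the difference stayed at 0.37, 0.38 and 0.36 and missed the threshold (adjusted p = 0.102, 0.0854 and 0.130 with the block). Among 16575 genes tested, 1.41% passed with the block.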

How the results depend on the processing

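The depth limits the fits without the block little, since the spread between libraries of a group is larger than counting error for most of the 10 genes. For the fits with the block, the spread between same-numbered pairs was not set against counting error. Closely alike pairs, as for NQO1 in ACHN, are therefore no measure of precision. The replicate block changed the calls given in the report and no other call of the 10 genes or NUF2. Without it 0 of the 10 genes were called with siNUF2 in either line, beside 9.90% of all genes in 769-P and 0% in ACHN. With it 6 were called in 769-P, 2 in ACHN and 1 for the difference between lines, beside 27.6%, 11.7% and 1.41% of all genes. Between the lines the numbers did not pair the libraries (r from -0.0598 to 0.0617), and the block changed no call of the 10. The wider lists went from 11 to 25 calls in 769-P, while all genes went from 9.90% to 27.6%. In ACHN the lists went from 0 to 11, and all genes from 0% to 11.7%. For the difference the lists went from 0 to 5, and all genes from 0% to 1.41%. One fit of all 12 libraries called 6 genes of the lists in 769-P and 1 in ACHN, beside 702 and 167 of all 16575 genes. Leaving out 1 library gave 5 to 11 in 769-P, beside 351 to 1115 of all 14157 genes. The lists had 5 without replicate 3 of siNUF2 or of siControl and 6 without replicate 2 of either.

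Settings added after the data had been seen were limma-voom on recovered reads and each replicate number of ACHN left out of both arms. Limma-voom with the block called 6 of the 10 in 769-P, 8 in ACHN and 1 for the difference. Of the wider lists it called 34, 27 and 16. The shares of all genes called by these fits were 36.7%, 23.8% and 6.36%. With the block, replicates 2 and 3 of ACHN called 1 of the 10 and 4 of the wider lists, 1 and 3 called 0 and 2, and 1 and 2 called 0 and 0. The shares of all genes in ACHN were then 2.44%, 2.37% and 0%. No such pair called any of the 10 or of the wider lists for the difference (0). NUF2 in ACHN passed with the block (-1.88), in 1 fit of 12 (-1.88), with voom and block (-1.864) and with the block in replicates 2 and 3 (-1.64) and in 1 and 3 (-2.06), but not in 1 and 2 (-1.94). Its difference between lines under siControl, 0.43, missed the threshold in 1 fit of 12 (0.43), with voom and block (0.39) and without replicate 1 of 769-P siControl (leave-one-out range 0.30 to 0.49).

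Estimates that changed sign when 1 library was left out were HMOX1 in 769-P (-0.71 to 0.20), and in ACHN NFE2L2 (-0.157 to 0.0811), KEAP1 (-0.0808 to 0.14) and GPX4 (-0.53 to 0.11). For the difference these were NFE2L2 (-0.164 to 0.0771), HMOX1 (-0.0925 to 0.81), GCLC (-0.18 to 0.0201), GCLM (-0.195 to 0.0685), TXNRD1 (-0.21 to 0.32), SRXN1 (-0.16 to 0.18) and GPX4 (-0.35 to 0.28), and between the lines NQO1 (-0.00385 to 0.23) and GPX4 (-0.20 to 0.35). With replicates 2 and 3 of ACHN, with or without the block, NFE2L2 in ACHN was 0.026, and the differences of TXNRD1, SRXN1 and GPX4 were -0.0434, -0.114 and -0.0671. With replicates 1 and 3, KEAP1 in ACHN was -0.00748, and the differences of NFE2L2 and GPX4 were 0.0289 and -0.0109. GPX4 between the lines was -0.0231 with voom and -0.0251 with voom and block. None of the estimates whose sign had changed passed the threshold, although GPX4 between the lines passed with its sign kept at 0.35, without replicate 1 of ACHN siControl. The cause was not tested. Of 810 values of single genes under alternatives, 729 kept direction and side of the threshold.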
